A study of Homo sapiens with 6 samples.

Results

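The lncRNAs HULC, DANCR, PVT1, CCAT1 and LINC00152, which are known for promoting the growth of cancer cells, were targeted by 52 of the 7873 shRNAs of a pooled library. The members were the shRNAs that the annotation of the library lists against a non-coding transcript with 1 of these gene symbols. They comprised 5 shRNAs against HULC, 10 against DANCR, 18 against PVT1, 4 against CCAT1 and 15 against LINC00152, on 11 of the 1543 lncRNA targets of the library. The input group held 3 libraries of the plasmid pool before virus was made from it. The selected group held 3 libraries that were amplified from the DNA of infected HUH7 cells, an established human hepatocellular carcinoma (HCC) line. Puromycin was added 2 days after infection and kept for 4 days, and the surviving cells were grown for 4 weeks more before their DNA was isolated. No genotype, vehicle or untreated cell sample is part of the comparison, and all selected cells carry the puromycin resistance gene of the vector. The cells were 1 line, and the lncRNAs had been chosen for the library because they were detected in it.

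LncRNAs are transcripts that are not translated into protein and that act through the RNA itself, through the act of their transcription or as hosts of small RNAs. HULC was named for its high level in liver cancer, and DANCR for its role in holding back cell differentiation. PVT1 and CCAT1 are transcribed near the MYC oncogene, and LINC00152, now called CYTOR, is raised in many tumours. An shRNA is processed in the cell to a guide strand of about the length of a microRNA, which pairs with its target RNA and leads to cleavage of that RNA. A vector that slows the growth of its host cell, or kills it, becomes rarer in the population, and one that favours growth becomes more frequent. Because the libraries are DNA, they hold no expression values, and neither the level of the lncRNAs nor their knockdown can be read from them.

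The targets of HULC, DANCR and LINC00152 that the results turn on are shown, and for HULC this sets shRNAs with larger and smaller changes side by side. All 5 HULC targets are given, together with the DANCR and LINC00152 targets whose shRNAs passed the test or almost vanished. Each target is written in the sense of the transcript with a match in the GRCh37 genome. The LINC00152 targets also match MIR4435-2HG, a near-identical copy of the gene, and only their match in CYTOR is given. Capitals mark bases 14 to 20, which face the seed of the guide (guide bases 2 to 8).
HULC shRNA 5, chr6:8653784-8653804 (+): atatgtatctttgGAAGAAAc
HULC shRNA 1, chr6:8653807-8653827 (+): tgaagtaaaggccGGAATATt
HULC shRNA 2, chr6:8653889-8653909 (+): taaactaagcacaGCATTATt
HULC shRNA 3, chr6:8653931-8653951 (+): tgttcaacctgtgGCAAATTt
HULC shRNA 4, chr6:8653951-8653971 (+): tgtactttctcccTGAATTAt
DANCR ENST00000425653 shRNA 3, chr4:53579696-53579716 (+): atgtcctgttgctGGTATTTc
DANCR ENST00000441504 shRNA 2, chr4:53579069-53579089 (+): ctccaggagttcgTCTCTTAc
DANCR ENST00000441504 shRNA 3, chr4:53579243-53579263 (+): cccttaactggaaGGAAACAt
LINC00152 ENST00000409139 shRNA 1, chr2:87906160-87906180 (+): cctgctctgctccTCTAAATa
LINC00152 ENST00000409139 shRNA 4, chr2:87882822-87882842 (+): ccaaccttaatgaACTGTATc
LINC00152 NR_015395 shRNA 2, chr2:87882862-87882882 (+): actggtaagacaaGCATTATt
LINC00152 NR_015395 shRNA 4, chr2:87883142-87883162 (+): tacttcacagggcACAATTTa
The HULC matches lie in a stretch of chromosome 6 from 8653784 to 8653971, in exons of HULC on the + strand, and none of them occurs elsewhere in the genome. Only 1 base is common to shRNA 3 and shRNA 4. The HULC targets were poor in G and C, from 28.6% to 38.1%, beside a median of 47.6% over all shRNAs against lncRNAs.

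Counts were scaled to the size of each library (normalized counts), and an shRNA was tested with edgeR's quasi-likelihood test where its mean count over the 6 libraries was at least 10. The log2(fold change) is that of input over selected, so that a positive value stands for a lower share in the selected cells than in the plasmid pool. No sample of newly infected cells is part of the comparison. Changes while virus was made or cells were infected therefore cannot be told apart from changes during growth. An adjusted p-value no higher than 0.05 was needed for a call, together with a log2(fold change) of 0.75 or more for depleted shRNAs and of -0.75 or less for enriched ones. The input libraries held 2323330 to 2612829 counts each, and the selected libraries 1525256 to 4013368. Beyond counting error, an shRNA's level varied by 1.50% among the input libraries and by 23.6% among the selected ones, so that most of the spread lay in the selected libraries. The test estimated 1 spread per shRNA for both groups together. Without an input library, 253 to 279 shRNAs of the whole library were depleted, beside 494 with all libraries. The loss of calls without an input library was thus not particular to the members. Of the 7232 shRNAs tested, 6.83% were depleted and 5.85% were enriched, and without a fold limit 15.4% fell and 17.4% rose. Nothing in the labels says that the libraries are separate cultures, and the p-values rest on a spread that may be only technical. The reads carry no molecular identifiers, and an interval on counts covers counting error only.

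Among the 48 members tested, 4 were depleted and 3 were enriched, or 8.33% and 6.25%, which is near the shares over the whole library. The depleted shRNAs comprised 1 against HULC, 1 against DANCR and 2 against PVT1, and all 3 enriched shRNAs were directed against PVT1. No shRNA against CCAT1 or LINC00152 was called in either direction. A further 7 members fell and 1 rose with an adjusted p-value up to 0.05 without reaching the fold limit, or 14.6% and 2.08%, beside 8.57% and 11.5% over all shRNAs tested. The median log2(fold change) of the members was 0.13, beside -0.013 over all shRNAs tested. The 95% interval of 28 members (58.3%) lay wholly between -0.75 and 0.75, as it did for 51.6% of all shRNAs tested. Groups whose libraries did not overlap were also found among members that did not pass the test. LINC00152 ENST00000455131 shRNA 3, at a log2(fold change) of 0.067 (edgeR, adjusted p = 0.386), was 1 of them. The share of shRNAs without overlap over the whole library is not given here. None of the 11 targets met the rule of the study for a candidate lncRNA, which asks for at least 2 depleted shRNAs with a log2(fold change) of at least 1 or at least 3 with 0.75. The rule was met by 1.12% of the lncRNA targets with at least 2 tested shRNAs. The count for the members was also 0 with unadjusted p-values, with DESeq2, with limma voom and when the shRNAs of a gene were pooled over its transcripts.

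HULC is a short RNA found mostly in hepatocytes and in HCC. All 4 shRNAs against it that could be tested had positive log2(fold change) values, with a median of 0.31, and the fall of shRNA 3 and shRNA 1 passed the test. Over all 7232 shRNAs tested, 3546 had positive values. Targets of 89 shRNAs that are no members also match exons of HULC. The 88 of them that were tested had a median of -0.092, with 3 depleted and 2 enriched. Only 2 of the 89 match exons of 3 genes or fewer, and neither was called. The normalized counts summed over the HULC shRNAs were 994, 958 and 1016 in the input libraries and 618, 674 and 749 in the selected libraries, so that the groups did not overlap. Most of that gap came from shRNA 3. It was at 367, 332 and 374 normalized counts in the input libraries and at 135, 163 and 194 in the selected libraries. Every selected library was thus far below every input library, and on average 45.9% of the input level remained. The log2(fold change) was 1.11 ± 0.16 (SE) with an adjusted p-value of 0.0019 from edgeR's quasi-likelihood test, and the 95% interval ran from 0.745 to 1.46.

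The other HULC shRNAs covered neighbouring parts of the same short stretch with smaller values. The level of shRNA 1 was 323, 302 and 328 normalized counts in the input libraries and 253, 235 and 254 in the selected libraries, again with no overlap between groups. It fell by a log2(fold change) of 0.36 ± 0.12 (SE; edgeR, adjusted p = 0.0484), but the adjusted p-value was 0.128 to 0.192 without each input library in turn and 0.0591 without selected library 2. For shRNA 2, whose target lies just upstream of that of shRNA 3, the libraries of the groups overlapped. Its log2(fold change) was 0.26 ± 0.21 (SE), with 145, 151 and 149 normalized counts in the input libraries and 122, 152 and 97.1 in the selected libraries. The lowest value was that of shRNA 5, at 0.17 ± 0.24 (SE), for which selected library 3 was above every input library. For shRNA 4, whose target adjoins that of shRNA 3, 1 count was found over the input libraries and 0 over the selected libraries, so that nothing can be said of it. The 95% interval of each tested shRNA other than shRNA 3 stayed below 0.75.

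DANCR, also known as a host gene of a small nucleolar RNA, was targeted through 2 transcripts, and its shRNAs moved in both directions. Of the 9 tested, 1 was depleted, 1 fell and 1 rose below the fold limit, and 6 did not pass. The median log2(fold change) was -0.032, and the summed normalized counts were 3354, 3193 and 3175 in the input libraries and 2946, 3102 and 3238 in the selected libraries, which overlap. All DANCR targets with a single match in the genome lie between 53579069 and 53580173 of chromosome 4 on the + strand, in exons of DANCR. The depleted shRNA, shRNA 3 of ENST00000425653, faces the last exon of the 2-exon transcript. It was at 204, 198 and 198 normalized counts in the input libraries and at 68.3, 130 and 86.4 in the selected libraries. No selected library reached an input library, although selected library 2 stood well above the other two. The log2(fold change) was 1.05 ± 0.24 (SE) with an adjusted p-value of 0.0098 (edgeR), and without input library 1 the adjusted p-value was 0.0518.

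The same exon held DANCR targets whose shRNAs did not change detectably. For shRNA 2 of ENST00000425653, with an input mean of 839 normalized counts, the log2(fold change) was -0.053 ± 0.080 (SE), and its 95% interval from -0.23 to 0.13 leaves room only for small changes. The target of shRNA 4 of that transcript occurs at 9 places in the genome, and its log2(fold change) of 0.45 ± 0.39 (SE) rests on a low input mean of 50.6. For shRNA 1 of that transcript, 0 counts were found over the input libraries and 1 over the selected libraries. The shRNAs against ENST00000441504, all of whose targets lie in its exon 2, included the opposite movements. Levels of shRNA 3 were 679, 664 and 652 normalized counts in the input libraries and 507, 371 and 392 in the selected libraries, without overlap. Its fall by a log2(fold change) of 0.67 ± 0.12 (SE) had an adjusted p-value of 0.0048 (edgeR) and came above the fold limit, at 0.80, without selected library 1. Levels of shRNA 2 were 231, 231 and 272 normalized counts in the input libraries and 348, 317 and 356 in the selected libraries. Every selected library was above every input library, and the log2(fold change) was -0.48 ± 0.13 (SE; edgeR, adjusted p = 0.0232). The adjusted p-value was 0.123, 0.120 and 0.0576 without input libraries 1, 2 and 3. The target of this shRNA also matches an exon of LINC01618 in the same orientation. The remaining members of this transcript had values of 0.025, -0.33 and -0.043 for shRNA 1, shRNA 4 and shRNA 5.

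LINC00152 had a near-identical copy, and its shRNAs could not tell the copies apart. The library lists 15 shRNAs under this symbol, on ENST00000409139, ENST00000455131 and NR_015395, and the last of these is assigned to MIR4435-2HG in the RefSeq table. Of the 15 targets, 14 matched exons of both CYTOR and MIR4435-2HG, which lie on chromosome 2 on opposite strands, and 13 matched exactly 2 places in the genome. The target of ENST00000409139 shRNA 4 given above, for instance, also lies at chr2:112125087-112125107 on the - strand, in an exon of MIR4435-2HG. None of the 14 shRNAs tested was called by edgeR, and none had an unadjusted p-value under 0.05 together with a log2(fold change) beyond 0.75 in either direction. DESeq2 and limma voom also called none. The median was 0.16 and the range was -0.36 to 0.56.

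Below the fold limit, 3 LINC00152 shRNAs fell. For shRNA 4 of ENST00000409139 the normalized counts were 847, 847 and 806 in the input libraries and 614, 593 and 501 in the selected libraries. The groups were clearly apart, with a log2(fold change) of 0.56 ± 0.097 (SE; edgeR, adjusted p = 0.0037), and the adjusted p-value stayed at or below 0.0284 with any library left out. The shRNAs tested against that transcript all had positive values, from 0.18 to 0.56. Levels of NR_015395 shRNA 4 were 301, 301 and 285 normalized counts in the input libraries and 181, 242 and 220 in the selected libraries, which did not overlap. It fell by 0.45 ± 0.15 (SE; edgeR, adjusted p = 0.0405). Levels of NR_015395 shRNA 2 were 727, 749 and 751 normalized counts in the input libraries and 640, 626 and 587 in the selected libraries. It fell by 0.27 ± 0.080 (SE; edgeR, adjusted p = 0.0308), a small loss that passed because the libraries of each group lay close together. Neither of these falls passed when any 1 of the input libraries was left out, with adjusted p-values of 0.120 to 0.150 for shRNA 4 and 0.105 to 0.131 for shRNA 2, and that of shRNA 4 was at 0.0567 without selected library 3.

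The abundant LINC00152 shRNAs were measured most precisely of all members. The input means of shRNA 2, shRNA 3 and shRNA 4 of ENST00000455131 were among the highest of the members, up to 1684 normalized counts, and their log2(fold change) values were -0.15, 0.067 and -0.082. The smallest SE of any member, 0.056, belonged to shRNA 3 of this transcript, and its 95% interval ran from -0.060 to 0.19. The targets of shRNA 2 and shRNA 4 share 2 bases, and levels of shRNA 4 were 1456, 1382 and 1479 normalized counts in the input libraries and 1545, 1546 and 1481 in the selected libraries. Those of shRNA 2 were 1592, 1613 and 1607 in the input libraries and 1777, 1910 and 1661 in the selected libraries, so that both stood slightly above the input without passing the test (adjusted p = 0.317 and 0.103, edgeR). Scaled on the reporter shRNAs, the value of shRNA 4 came to 0.032, on the other side of 0. At the other end, NR_015395 shRNA 1 was at 117, 122 and 117 normalized counts in the input libraries and at 214, 29.6 and 93.8 in the selected libraries. These 3 selected libraries lie above, far below and somewhat below the input, and the SE of 0.53 was the largest among the members. The rarest of the LINC00152 shRNAs, ENST00000409139 shRNA 1, was not tested because its mean count was 7.67. It had 42 counts over the input libraries and 4 over the selected libraries, a ratio of 11.7 after scaling, with an exact 95% interval of 4.25 to 45.0 that covers counting error only.

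A separate target of the library, ENST00000432268, is listed under MIR4435-2HG and is no member, but all 5 of its shRNAs match exons of CYTOR as well. Among the 4 that were tested, 1 was depleted and 1 was enriched. The depleted one, shRNA 3, was at 157, 130 and 148 normalized counts in the input libraries and 59.3, 35.9 and 69.6 in the selected libraries (log2(fold change) of 1.396 ± 0.27, SE; edgeR, adjusted p = 0.0059). The enriched one, shRNA 1, was at 175, 151 and 150 in the input libraries and 309, 266 and 236 in the selected libraries (-0.76 ± 0.16, SE; edgeR, adjusted p = 0.0083). The tested shRNAs that face this pair of copies thus had values on both sides of 0, whichever symbol they were listed under.

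PVT1 is a long gene with many isoforms, next to MYC in the 8q24 region that is often gained in tumours, and it is also the host of several microRNAs. It was the gene with most members and with the widest range, from -1.07 to 1.004. Of its 17 tested shRNAs, 2 were depleted (11.8%), 3 were enriched (17.6%), 1 fell below the fold limit and 11 did not pass. The median was -0.19. Over all shRNAs tested, 6.83% were depleted and 5.85% were enriched. The summed normalized counts were 6218, 6389 and 6247 in the input libraries and 6038, 6151 and 6731 in the selected libraries, which overlap. All 5 calls were on ENST00000523190 and NR_003367, and none of the 7 tested shRNAs against ENST00000520913 and ENST00000523068 passed the test. With so few shRNAs and such shares over the library, a lack of calls says little of a transcript, and the difference between transcripts was not tested.

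Within exon 4 of ENST00000523190, neighbouring PVT1 targets gave opposite results. The shRNA 4 of this transcript faces chr8:129022611-129022631 (GRCh37, + strand) and was at 520, 575 and 590 normalized counts in the input libraries and at 307, 376 and 265 in the selected libraries. The groups were well apart, and it was depleted with a log2(fold change) of 0.83 ± 0.14 (SE; edgeR, adjusted p = 0.0035), or 0.70 without selected library 3. The target of shRNA 1 shares 8 bases with it, at chr8:129022624-129022644. Its levels were 648, 689 and 641 in the input libraries and 979, 605 and 807 in the selected libraries, on both sides of the input, with a log2(fold change) of -0.26 ± 0.15 (SE; edgeR, adjusted p = 0.210). The log2(fold change) values of this pair, the most overlapping among all members, were 1.09 apart. Just downstream, at chr8:129022652-129022672, the target of shRNA 3 was that of an enriched shRNA. Levels rose from 155, 140 and 137 normalized counts in the input libraries to 289, 351 and 268 in the selected libraries, on average 211% of the input level. The log2(fold change) was -1.07 ± 0.16 (SE; edgeR, adjusted p = 0.0021), the lowest of all members.

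The remaining PVT1 shRNAs of that transcript lay between these values. Levels of shRNA 5, whose target has no uninterrupted match in the genome, were 724, 780 and 770 normalized counts in the input libraries and 316, 602 and 577 in the selected libraries. No selected library reached the input, but selected library 1 was much lower than the other two. Its fall by a log2(fold change) of 0.58 ± 0.19 (SE; edgeR, adjusted p = 0.0474) did not pass without input library 1, 2 or 3 (adjusted p = 0.109, 0.133 and 0.130) or without selected library 3 (0.0619). For shRNA 2 the log2(fold change) was -0.23 ± 0.11 (SE), and the libraries of the groups overlapped.

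The PVT1 shRNAs against NR_003367 faced mostly repeated sequence. The targets of shRNA 1, shRNA 4 and shRNA 5, which were the 3 called on this transcript, occur at 431, 3349 and 2223 places in the genome and in exons of 7, 46 and 39 genes in the same orientation. The depleted shRNA 1 was at 126, 115 and 101 normalized counts in the input libraries and at 46.7, 35.0 and 85.7 in the selected libraries. Selected library 3 came close to the input, and the log2(fold change) of 1.004 ± 0.33 (SE) passed narrowly (edgeR, adjusted p = 0.0456). The adjusted p-value was 0.159, 0.130 and 0.104 without input libraries 1, 2 and 3 and 0.0599 and 0.0817 without selected libraries 1 and 2. The enriched shRNA 4 was at 81.9, 97.8 and 85.9 normalized counts in the input libraries and at 210, 177 and 115 in the selected libraries, which spread widely above the input. Its log2(fold change) of -0.90 ± 0.25 (SE; edgeR, adjusted p = 0.0234) lost its call without each input library (adjusted p = 0.102, 0.0688 and 0.0936) and without selected library 1, at -0.72. The enriched shRNA 5 was at 165, 146 and 150 in the input libraries and at 250, 315 and 352 in the selected libraries. All 3 selected libraries were far above the input, and the log2(fold change) was -1.002 ± 0.17 (SE; edgeR, adjusted p = 0.0030) and was called with any library left out. The only shRNA of this transcript with a single match in the genome, shRNA 2, did not move detectably, at 0.0021 ± 0.13 (SE) with a 95% interval from -0.29 to 0.29.

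Counted over PVT1 targets that lie in exons of 1 gene only, 1 depleted and 1 enriched shRNA were left, both on ENST00000523190. The shRNAs against ENST00000520913, all in its exon 3 and each with 1 match in the genome, had values from -0.19 to 0.36. The 95% intervals of 4 of these 5 lay between -0.75 and 0.75. For ENST00000523068, shRNA 1 and shRNA 3 had values of -0.55 and 0.13 (edgeR, adjusted p = 0.0565 and 0.692), and their targets occur at 565 and 1366 places. The third, shRNA 2, had 10 counts over the input libraries and 7 over the selected libraries and was not tested.

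CCAT1, first described in colon cancer, lies in the same region of chromosome 8 as PVT1. GENCODE places its 4 targets in exons of CASC19, and the RefSeq table names their transcript CCAT1. No CCAT1 shRNA was called by edgeR, DESeq2 or limma voom, and none had an unadjusted p-value under 0.05 together with a log2(fold change) beyond 0.75. The median was 0.27 and the range was -0.27 to 0.45. Its lower end was the value of shRNA 2, whose target occurs at 55 places in the genome and in exons of 3 genes in the same orientation. Levels of shRNA 1 were 808, 828 and 818 normalized counts in the input libraries and 647, 512 and 729 in the selected libraries, all below the input. It fell by a log2(fold change) of 0.38 ± 0.12 (SE; edgeR, adjusted p = 0.0422), with adjusted p-values of 0.117 to 0.127 without each input library and 0.0504 without selected library 2. The target of shRNA 3 shares 2 bases with that of shRNA 1 and 2 with that of shRNA 4. Its levels were 378, 358 and 397 in the input libraries and 365, 321 and 329 in the selected libraries, overlapping, with a value of 0.17 ± 0.12 (SE). The target of shRNA 4 occurs at 3640 places in the genome, and levels were 98.1, 105 and 73.5 in the input libraries and 53.9, 83.4 and 62.9 in the selected libraries (0.45 ± 0.27, SE; edgeR, adjusted p = 0.220). A different transcript listed as CASC19 had 4 tested shRNAs, with values from -0.12 to 0.44.

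An shRNA can also act on other RNAs that pair with its guide seed. The called members and the other tested HULC shRNAs were therefore set beside other shRNAs of the library with the same seed. The seed of HULC shRNA 3 was shared by 4 other tested shRNAs, with log2(fold change) values from -0.085 to 1.37 and a median of 0.42, of which 1 was depleted. The 3 others with the seed of HULC shRNA 1 had a median of 0.36 and a range of 0.16 to 0.90, with 1 depleted. The 3 with that of HULC shRNA 2 had a median of 0.27, and the 11 with that of HULC shRNA 5 a median of 0.016. No other tested shRNA shared the seed of the depleted DANCR shRNA. The seed of the enriched ENST00000523190 shRNA 3 was shared by 2 others, at -1.15 and -0.77, of which 1 was enriched. The 6 other shRNAs with the seed of the enriched NR_003367 shRNA 5 had a median of -0.0085, and the 3 with that of the enriched shRNA 4 a median of -0.39. Among the 4 others with the seed of the depleted NR_003367 shRNA 1 the median was 0.099 and the range -0.41 to 0.79, with 1 depleted, and the only other with that of the depleted ENST00000523190 shRNA 4 was at -0.29. The seeds of the enriched NR_003367 shRNAs are also those of human microRNAs, miR-940 and miR-6808-5p for shRNA 5 and miR-490-3p for shRNA 4, and the depleted ENST00000523190 shRNA 4 has the seed of miR-4715-5p. In all, 6 members (11.5%) had the seed of a mature microRNA in the RefSeq table, beside 12.4% of all shRNAs. HULC shRNA 2 and NR_015395 shRNA 2 shared a seed with each other and had values of 0.26 and 0.27, and ENST00000523190 shRNA 5 and ENST00000455131 shRNA 1 shared another and had values of opposite sign, 0.58 and -0.27. The part of the seed in the levels was not tested.

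Related genes gave the scale for these values. The other growth-promoting cancer lncRNAs on a list of 46 were targeted through 20 genes, and of their 198 tested shRNAs 18 were depleted (9.09%) and 10 were enriched (5.05%), with a median of 0.027. The list was not separate from the other sets. It includes MIR4435-2HG, the copy of LINC00152, and PCAT1, which is counted again among the neighbours below. Of the neighbours of PVT1 and CCAT1 in 8q24, 4 genes were targeted, and of 26 tested shRNAs 2 were depleted and 2 enriched. Both depleted ones were directed against PCAT1, a lncRNA of prostate cancer, at 1.81 and 0.94 (edgeR, adjusted p = 0.0165 and 0.0461), and another PCAT1 shRNA rose by a log2(fold change) of -0.67 (edgeR, adjusted p = 0.0039). Of a list of 9 protein-coding growth genes, 3 were targeted by the library. These were PLK1 and KIF11, which are needed for mitosis, and FOXM1, a transcription factor of dividing cells. Of their 29 tested shRNAs 1 was depleted and 3 were enriched, all against FOXM1, with a median of -0.032. The values ranged from -0.061 to 0.39 for PLK1 and from -0.53 to -0.21 for KIF11, and none of these shRNAs was depleted, with adjusted or unadjusted p-values. The 43 tested shRNAs against reporter and resistance genes had a median of -0.087, with 4 depleted (9.30%) and 3 enriched (6.98%). These shares were no lower than those of the members, at 8.33% and 6.25%.

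Each gene was also set beside 1152 other lncRNA genes with at least 4 tested shRNAs by the root mean square difference of the minimum, quartiles, median and maximum of their log2(fold change) values. The genes most like DANCR were TUG1, at 0.061, with 17 tested shRNAs between -0.51 and 1.13, and LINC00839, at 0.085. Those most like PVT1 were TTC28-AS1 and PCDH10-DT, at 0.068 and 0.079, and those most like HULC were ENSG00000258736 and LOC157273, at 0.054 and 0.056. For LINC00152, ENST00000564772 and CRYM-AS1 came closest, at 0.061 and 0.071, and for CCAT1 the lncRNA targets assigned to ENST00000445963 and MYADM, at 0.052 and 0.055. The closest of so many genes are near by choice, and no limit of likeness was set. The differences therefore only show how near another lncRNA of the library came to each of the 5 genes.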

How the data were processed

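The values the authors deposited are whole, unnormalized read counts per shRNA. PCR products of the cassettes were sequenced, and the submitters' processing notes name cutadapt 1.4.2, BWA 0.7.10 and SAMtools 1.3 for trimming, alignment to the shRNA sequences and counting. Groups came from the sample titles. The quasi-likelihood test of edgeR 4.0.16 (R 4.3.3), with TMM scaling and without a block, was run on 7232 of 7873 shRNAs, those whose counts averaged 10 or more, and p-values were adjusted after Benjamini-Hochberg over all of them. Standard errors were derived from the log2(fold change) and its F statistic. The code was tested on simulated data. The thresholds and the candidate rule are those of the study. The members, gene lists and tests were chosen with earlier results of these data known.

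Targets were searched without mismatches in GRCh37 and in GENCODE release 44 mapped to it, and the RefSeq tables (GRCh38.p14) gave gene names and microRNA sequences only. shRNAs are numbered per transcript in the order of the library. Values in every library are given for members that passed an adjusted p-value of 0.05 and for the most overlapping pair of targets in each gene, and a few members at the extremes of abundance or spread were added after their values were seen. For each gene, the 2 other lncRNA genes with the most similar profile are named.

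Alternatives were RLE size factors, library totals, TMM on reporter shRNAs, no filter, a minimum mean of 100 counts, DESeq2 1.42.0 (beta prior on or off), limma 3.58.1 voom with group weights, the replicate number as a block, other fold limits, each library left out, targets in exons of 1 gene and pooling by gene. Arrayed assays and RNA sequencing were not analysed here.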

Additional observations from a re-analysis of the deposited data

How the results depend on the processing

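HULC shRNA 3, PVT1 ENST00000523190 shRNA 3 and NR_003367 shRNA 5 kept their calls under the 15 alternative fits, and 43 of the 48 tested members kept their status as called or not called in those that tested them. The target of NR_003367 shRNA 5 lies in exons of several genes, so it is left out where targets in exons of 1 gene only are counted, and without a fold limit the 8 members that passed below the limit are called too. Of 33 members above an adjusted p-value of 0.05, 12 came to 0.05 or below under at least 1 of these fits, and 6 of the 15 members that passed did so under every one. The members' counts were 4 depleted and 3 enriched. With a library left out they were 2 to 4 and 2 to 3 (2 depleted without input library 1), without a fold limit 11 fell, and over targets in exons of 1 gene only 1 was enriched. Without a filter ENST00000409139 shRNA 1 was also depleted. No target met the candidate rule under any alternative. Over all shRNAs 494 were depleted and 423 enriched. Depleted shRNAs numbered 306 at a mean count of at least 100, 1114 without a fold limit and 296 with a limit of 1. They numbered 253 to 279 without an input library and 569 to 603 without a selected one. Enriched ones numbered 1255 without a limit and 221 with a limit of 1. They numbered 288 to 301 without an input library and 453 to 480 without a selected one. TMM on reporter shRNAs moved the median of all shRNAs from -0.013 to 0.10 and gave 671 depleted and 299 enriched beside 494 and 423.

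Under DESeq2 with a beta prior, NR_003367 shRNA 1 and shRNA 4 fell short of the fold limit at 0.74 and -0.73, and with TMM on reporter shRNAs ENST00000441504 shRNA 3 passed it at 0.78. The sign changed for 8 members, all with values between -0.082 and 0.14 in the report. With TMM on reporter shRNAs this gave 0.060 and 0.080 for ENST00000425653 shRNA 2 and shRNA 5, 0.072 for ENST00000441504 shRNA 5 and 0.032 for ENST00000455131 shRNA 4. Library totals gave 0.0015 for ENST00000425653 shRNA 5. NR_003367 shRNA 2 came to -0.0014 without a filter and -0.016 with voom. With a library left out, ranges were -0.093 to 0.0024 for ENST00000425653 shRNA 2, -0.16 to 0.10 for ENST00000425653 shRNA 5, -0.094 to 0.26 for ENST00000441504 shRNA 1, -0.30 to 0.40 for ENST00000441504 shRNA 5, -0.040 to 0.50 for ENST00000523068 shRNA 3, -0.078 to 0.12 for NR_003367 shRNA 2 and -0.32 to 0.91 for NR_015395 shRNA 1.

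Correlations of same-numbered deviations were -0.0077, 0.0058 and -0.034, and 0 of 3 input libraries were closest to their own number. The input libraries varied by only 1.50% beyond counting error, so these values cannot show whether the replicate numbers pair the libraries. With the replicate number as a block, 4 members were depleted and 3 enriched, 528 and 382 over all shRNAs, ENST00000441504 shRNA 5 came to 0.040, and HULC shRNA 1 and NR_015395 shRNA 2 and shRNA 4 no longer passed (adjusted p = 0.115, 0.0758 and 0.0677). HULC shRNA 1 was also above 0.05 without a filter, with DESeq2 and with voom (0.0542 to 0.0914), as NR_015395 shRNA 4 was with voom (0.0626) and ENST00000441504 shRNA 2 with TMM on reporter shRNAs (0.0699). The causes were not tested.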
